A study of Mus musculus with 4 samples.

Results

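Oligodendrocyte precursors (OPCs) are the glial cells of the brain that carry the receptor PDGFRα and the proteoglycan NG2, encoded by Pdgfra and Cspg4. In nuclei of mouse hippocampus they were taken as barcodes with at least 400 detected genes and at least 3 of 7 precursor genes detected (Pdgfra, Cspg4, Vcan, Neu4, C1ql1, Cacng4 and Lhfpl3), with Pdgfra, Cspg4 or Neu4 among them. At most 1 unique molecular identifier (UMI, 1 counted RNA molecule) of Slc17a7 and at most 1 of Gad1 and Gad2 together were allowed, since these genes mark excitatory and inhibitory neurons. In all, 1240 of 60288 barcodes met the rule. They were thus selected on their own counts of these 10 genes, whose values are given below as a description only.

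The study compared hippocampus of mice that differ in monoacylglycerol lipase (MAGL), the enzyme encoded by Mgll that breaks down the endocannabinoid 2-arachidonoylglycerol. There was 1 library for each of 4 genotypes: wild type (WT), a global MAGL knockout (tKO), a knockout in astrocytes (aKO) and a knockout in neurons (nKO). The labels give no age, no number of animals, and neither the promoter nor the Cre line behind the cell type specific knockouts. No genotype was replicated, so genotypes are compared by their values without a test, and the 95% intervals cover counting error only.

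OPCs divide throughout life and are the source of new oligodendrocytes, which wrap axons in myelin. They receive synapses from neurons through glutamate and GABA receptors, and platelet-derived growth factor acting on PDGFRα drives their division. On the way to an oligodendrocyte they pass through a committed state marked by Gpr17, Enpp6, Bcas1 and Bmp4, and myelin genes follow. Endocannabinoids act on the receptor CB1, encoded by Cnr1, and have been studied as regulators of this lineage.

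The WT library held 308 precursors among 9369 barcodes, a share of 3.29% (exact Clopper-Pearson interval 2.94 to 3.67%). The tKO library held 882 among 31243, or 2.82% (2.64 to 3.01%). The aKO library held 28 among 10731, or 0.261% (0.173 to 0.377%), and the nKO library held 22 among 8945, or 0.246% (0.154 to 0.372%). The intervals of WT and tKO lay above those of aKO and nKO. Barcodes gated below as mature oligodendrocytes numbered 383 in WT, 1938 in tKO, 56 in aKO and 77 in nKO. As shares of the same barcode totals, WT and tKO again lay above aKO and nKO, so this order was not particular to precursors. Those gated as astrocytes numbered 119, 154, 40 and 71. Their share was lower in tKO than in nKO, so the order did not hold for astrocytes. A share of nuclei can also depend on dissection and capture, which cannot be told apart from genotype here.

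Precursors were shallower than the other barcodes in every library. Their median was 3636.5 UMIs in WT, 2506.5 in tKO, 2791.5 in aKO and 2995.5 in nKO, against 9067, 5531, 7459 and 8451 in the other barcodes. After each barcode was thinned to 2000 UMIs and the rule applied again, the shares were 3.12% in WT, 2.04% in tKO, 0.183% in aKO and 0.190% in nKO. Barcodes with fewer than 2000 UMIs were left out, 574 in WT, 3911 in tKO, 369 in aKO and 545 in nKO. The lower quartile of precursor depth was 3002.75 UMIs in WT and 1854.25 in tKO, so a larger part of the tKO precursors was lost. Among the barcodes left, the order of WT and tKO against aKO and nKO was the same, and the gap between WT and tKO was wider. The part of the lost shallow precursors in that wider gap was not tested.

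**Figure D1:**
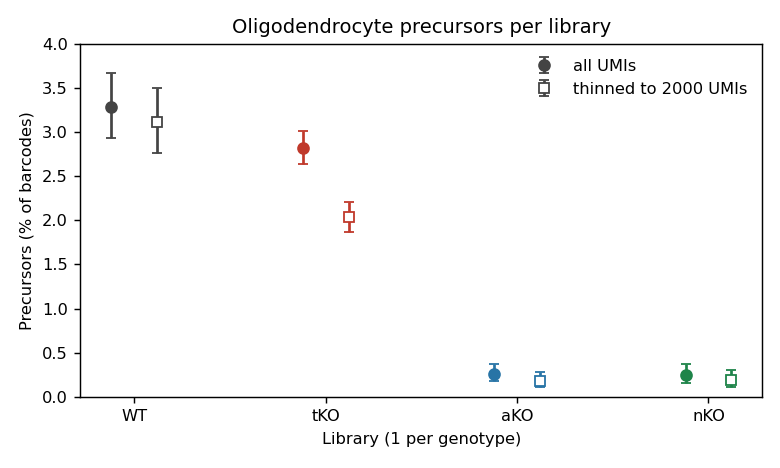
Share of barcodes that met the precursor rule in each library (x axis, 1 library per genotype; y axis, percent of barcodes), with exact 95% intervals. Filled circles use all UMIs and open squares use barcodes thinned to 2000 UMIs, without the barcodes below that depth. WT and tKO lie at 2.04 to 3.29% and aKO and nKO below 0.3%.

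The libraries differed in ways that bear on every comparison below. The tKO library held 31243 barcodes against 8945 to 10731 in the others, and Scrublet called 25.4% of its precursors doublets, against 2.27% in WT, 3.57% in aKO and 4.55% in nKO. Over all barcodes the called shares were 23.6, 3.77, 6.07 and 1.86% in tKO, WT, aKO and nKO, with an assumed rate that scaled with the number of barcodes. Precursors with Y-linked UMIs and no Xist numbered 634 in tKO and those with Xist and no Y-linked UMI numbered 0, while WT had 104 and 147, aKO 8 and 15, and nKO 6 and 15. The other 3 libraries thus held nuclei of both sexes and tKO showed male nuclei only, so sex and genotype cannot be told apart in the comparison with tKO beyond the values given for male nuclei. Of precursor barcode sequences, 1 was found in both WT and tKO and 0 in any other pair of libraries.

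Lineage genes that the rule did not use were high in the precursors. The transcription factor Sox10, which the whole oligodendrocyte lineage expresses, stood at 277 CPM (the usual CPM scale, taken over all UMIs of the group) in WT precursors, 183 in tKO, 180 in aKO and 288 in nKO, against 5.70, 7.62, 0.713 and 0.969 CPM in all other barcodes. Olig2, a transcription factor of the same lineage, stood at 123, 76.7, 49.1 and 111 CPM against at most 1.05 CPM outside. Among the 25 genes with the highest ratio of precursors to other barcodes were Scrg1, Gpr17, Ednrb, Emid1, Rlbp1 and Tmem100. Of the genes of the rule, Pdgfra, Cspg4, Neu4, C1ql1 and Vcan were among them, and Cacng4 and Lhfpl3 were not. The rule genes themselves are given as a description: Pdgfra (chromosome 5, 75152292 to 75198215 in mm10) was detected in 87.3% of WT, 78.7% of tKO, 67.9% of aKO and 68.2% of nKO precursors, and in at most 0.787% of the other barcodes.

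The threshold of the rule was compared with its neighbours. In tKO, 99 members with exactly 3 of the 7 genes had 173 CPM of Sox10 and 599 CPM of the 8 excitatory neuron markers (among them Slc17a7, Slc17a6, Camk2a, Neurod6, Neurod2, Nrgn and Cck). The 64 tKO barcodes just outside, with 2 of the 7 genes, had 44.5 and 1011 CPM. In WT, the 13 members with 3 genes had 344 CPM of Sox10 and 760 of the excitatory list, and the 17 barcodes with 2 genes had 239 and 458 CPM. Members at the threshold thus held more of the excitatory list than precursors as a whole in both libraries. In aKO and nKO, with 5 and 6 such members, they held less, at 557 against 810 and 324 against 388 CPM. All 7 rule genes were detected in 22.7% of WT precursors and in 7.26% of tKO precursors.

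Markers of neurons were present in the precursors and were unequal between libraries. The summed excitatory list stood at 131 CPM in WT, 461 in tKO, 810 in aKO and 388 in nKO precursors, against 1464 to 1774 CPM in the other barcodes. At least 3 of its 8 genes were detected in 3.25% of WT and 12.5% of tKO precursors. In all, 72 WT, 250 tKO, 8 aKO and 8 nKO precursors held at least 2 markers of an excitatory, inhibitory or medium spiny neuron list. These were 23.4% of the precursors in WT, 28.3% in tKO, 28.6% in aKO and 36.4% in nKO. Without these nuclei the excitatory list was at 7.13 CPM in WT and 37.3 in tKO, which follows from how they were left out. The inhibitory list was then at 200 CPM in WT and 206 in tKO, against 226 and 250 with all precursors. The medium spiny list was at 384 and 367 CPM, against 443 and 635. Leaving these nuclei out thus did not clear the precursors of the inhibitory and medium spiny lists. Several comparisons of tKO with WT are also given without these neuron-marker precursors.

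The inhibitory list summed to 213 to 632 CPM, highest in nKO, where 1 nucleus held all 33 UMIs of Vip. The medium spiny neuron list summed to 443 to 711 CPM, of which Pde10a made up 81.3 to 93.1%.

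Markers of other cell types were present as well. The 8 astrocyte markers summed to 388 to 752 CPM in precursors, and Gja1, Gjb6 and Slc39a12 were at 0 in aKO and nKO. Mature oligodendrocyte markers summed to 180 to 389 CPM, and at least 3 of the 8 were detected in 6.49% of WT, 6.24% of tKO, 3.57% of aKO and 13.6% of nKO precursors. The choroid plexus list summed to 444 to 859 CPM, of which Enpp2 made up 59.0 to 92.5%. Fibroblast, pericyte and endothelial lists stayed at or below 16.4 CPM, and the microglial list ranged from 40.9 to 82.4 CPM.

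The transcription factors and receptors of the lineage gave the first comparison of tKO with WT within precursors. Of 14 precursor transcription factors 12 had at least 100 UMIs over the precursors. None was at least 2-fold higher in tKO and 1, Olig1, was at least 2-fold lower, and the median log2 ratio was -0.46, or -0.20 without neuron-marker precursors. Over all 6576 genes compared, 3.41% were at least 2-fold higher in tKO, 0.73% at least 2-fold lower and 4.14% either, with a median log2 ratio of -0.06.

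Olig1, the basic helix-loop-helix factor that acts with Olig2 in this lineage, stood at 241 CPM in WT precursors (95% counting interval 214 to 270), 101 in tKO (89.6 to 113), 155 in aKO (93.5 to 243) and 111 in nKO (53.2 to 204). The WT value lay above that of tKO and nKO beyond counting error and its interval met that of aKO. The log2 ratio of tKO to WT was -1.25 (-1.49 to -1.01). It was -0.95 without precursors that held neuron markers and -0.80 without called doublets. After thinning to 1000 UMIs, Olig1 was detected in 22.9% of WT and 10.9% of tKO precursors, against at most 0.2% of excitatory neurons. Olig2 had a log2 ratio of -0.69 (-0.99 to -0.37) and Sox10 of -0.60 (-0.80 to -0.40). Without the neuron-marker precursors Olig2 came to -0.38 and Sox10 to -0.26, and without called doublets to -0.30 and -0.18. In male nuclei only, Olig1 was at -1.32, Olig2 at -1.13 and Sox10 at -0.75.

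Growth factor receptors varied less. All 10 receptors compared lay between -0.55 and 0.19 in log2 ratio of tKO to WT, and none passed 2-fold. Their median was -0.20, and -0.06 without neuron-marker precursors. The 7 targets of receptor tyrosine kinase signalling compared, which include the ETS factor Etv5 and the Sprouty and Spred inhibitors, had a median of -0.46, and -0.27 without those precursors, with 0 past 2-fold. The 14 matrix and proteoglycan genes had a median of -0.24, and 0.04 without neuron-marker precursors, again with 0 past 2-fold. In male nuclei only, the medians lay further below 0, at -0.69 for the transcription factors, -0.39 for the receptors, -0.82 for the feedback targets and -0.52 for the matrix genes.

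Most of the larger ratios lay in genes that were lower in precursors than in the rest of the tissue. Of the 224 genes at least 2-fold higher in tKO precursors, 222 were lower in precursors than in the other barcodes of WT and tKO. Those 222 belong to 2509 such genes, whose median log2 ratio was 0.16. In the 4067 genes at least as high in precursors as outside, 2 were at least 2-fold higher and 37 at least 2-fold lower, with a median of -0.16. Without neuron-marker precursors the medians of the 2 sets were 0.06 and -0.03, and 26 of the 4491 genes then compared were at least 2-fold higher and 19 lower. Without called doublets 25 of 5092 were higher and 50 lower, and in male nuclei only 358 and 78 of 4935.

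Receptor genes of neurons were among them. Gria1, an AMPA receptor subunit, stood at 88.9 CPM in WT, 540 in tKO, 1120 in aKO and 211 in nKO precursors, against 1879 to 2575 CPM in the other barcodes. Grin2b, an NMDA receptor subunit, stood at 88.9, 469, 703 and 189 CPM. WT was lowest for both and aKO highest. Cntnap2, a neuronal adhesion gene, stood at 170 CPM in WT, 1260 in tKO, 638 in aKO and 2019 in nKO precursors. The excitatory list was likewise lowest in WT and highest in aKO, while Cntnap2 was highest in nKO. The part of neuronal RNA in these values was not tested. In all, 4 of 20 glutamate receptor genes compared (Gria1, Grin2a, Grin2b and Grin1) and 3 of 13 GABA receptor genes (among them Gabra5 and Gabra2) were at least 2-fold higher in tKO and 0 were at least 2-fold lower. Without neuron-marker precursors the medians of the lists went from 0.25 to 0.12 and from 0.55 to 0.20, and in male nuclei only they were 0.18 and 1.04.

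**Figure D2:**
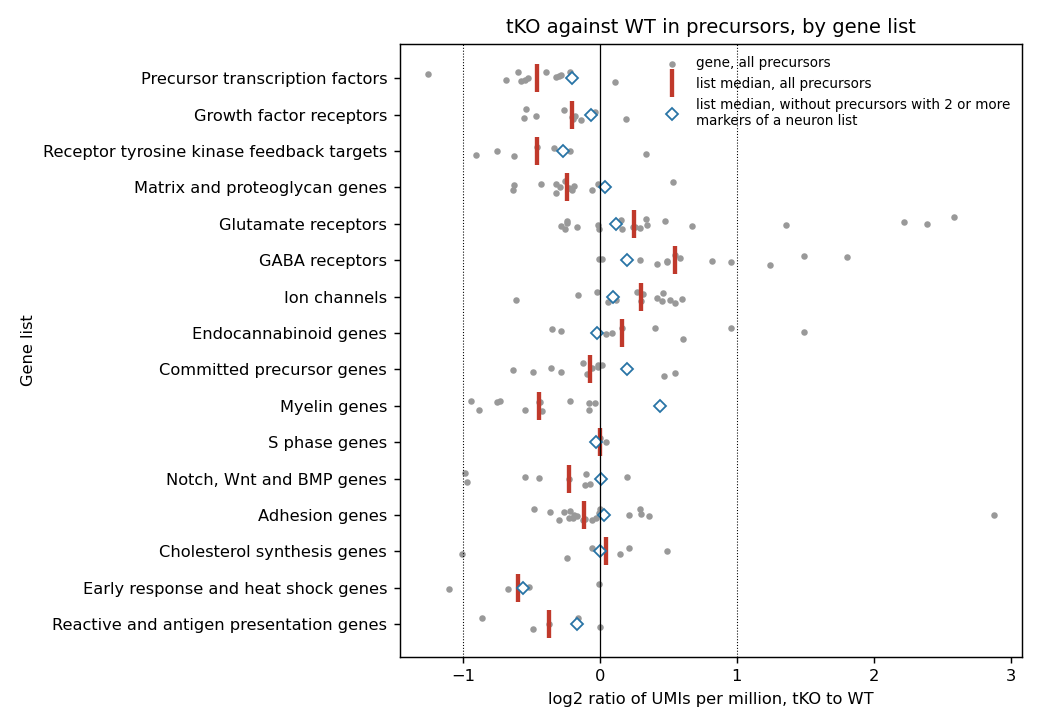
log2 ratio of CPM in tKO to WT precursors (x axis) for genes of each list (y axis, lists with at least 3 genes compared). Grey points are genes, red bars list medians over all precursors, and open blue diamonds medians without precursors that held at least 2 markers of a neuron list; dotted lines mark 2-fold. The GABA receptor median moves from 0.55 to 0.20, and Cntnap2 lies farthest right at 2.88. The myelin median lies on opposite sides of 0 in the 2 sets, at -0.44 and 0.44.

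Among genes at least as high in precursors as outside, Vegfa had the lowest ratio of tKO to WT. It encodes the vascular growth factor VEGF-A and lies on chromosome 17 (46016993 to 46032369, mm10). It stood at 107 CPM in WT (131 UMIs), 31.2 in tKO (89 UMIs), 114 in aKO (14 UMIs) and 111 in nKO precursors (10 UMIs). The tKO library was low, and the other 3 lay between 107 and 114 CPM. The log2 ratio of tKO to WT was -1.77 (-2.18 to -1.38). It was -1.80 without neuron-marker precursors, -1.55 without called doublets and -2.02 in male nuclei only.

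The lower Vegfa level was seen outside precursors as well. In all other barcodes it was 10.2 CPM in WT and 5.47 in tKO, a log2 ratio of -0.89 (-1.02 to -0.76). In nuclei gated as astrocytes it was 77.5 CPM in WT and 25.6 in tKO, from 34 and 14 UMIs, and in mature oligodendrocytes 10.5 and 5.48 CPM. The share of precursors with a Vegfa UMI was 25.6% in WT and 8.05% in tKO, and 7.64% and 2.89% after thinning to 1000 UMIs. Excitatory neurons of the same libraries, taken as barcodes with at least 3 Slc17a7 UMIs, had 0.8% and 0.55% at that depth.

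The other 11 genes of the lowest 12 lay between -1.53 and -1.28 in log2 ratio. Rhoj, a small GTPase, stood at 112 CPM in WT, 38.5 in tKO, 8.18 in aKO and 44.4 in nKO precursors. Fabp7, the brain fatty acid binding protein of glial progenitors, stood at 84.8, 32.2, 16.4 and 44.4 CPM. Htra1, a secreted serine protease, stood at 82.4, 31.5, 8.18 and 66.6 CPM. WT had the highest value of Rhoj, Fabp7 and Htra1, but the aKO values rest on 1 or 2 UMIs each and those of nKO on 4, 4 and 6. These genes were chosen by a low ratio of tKO to WT, which favours a high value in WT. The aKO and nKO ratios use the same WT value and are not separate support. The interval of the log2 ratio to WT included 0 for all 3 genes in nKO and lay below 0 for all 3 in aKO, at -9.09 to -1.27 for Rhoj, -5.44 to -0.49 for Fabp7 and -8.65 to -0.82 for Htra1. Without neuron-marker precursors Rhoj had a log2 ratio of tKO to WT of -0.98, Fabp7 of -0.86 and Htra1 of -1.06. In male nuclei only the ratios were -1.81, -1.15 and -2.19. The remaining members were Cd302, Tes and 6 noncoding RNAs (4930445B16Rik, Gm20713, 2600014E21Rik, Gm42948, Gm26936 and 4930517O19Rik). Without neuron-marker precursors Cd302, Tes and these RNAs lay between -1.42 (Gm26936) and -0.84 (Tes and Gm42948), 4 of the RNAs with fewer than 100 UMIs. In GENCODE M21, 4 of the RNAs lie within a protein-coding gene of the opposite strand: Gm42948 in Lhfpl3, one of the genes that chose the precursors, Gm20713 in Gpc5, 4930445B16Rik in Lrrc4c and 4930517O19Rik in Klf12. Whether reads were counted by strand is unknown here, so reads of these RNAs and of their host genes cannot be told apart. The hosts had log2 ratios of tKO to WT of -0.35 (Lhfpl3), -0.32 (Gpc5), -0.23 (Lrrc4c) and -0.31 (Klf12). In the other barcodes all 12 also had a ratio below 0, from -1.08 to -0.28, and 11 of the 12 intervals excluded 0 there, the exception being Gm42948.

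The 12 highest ratios in the same set were small. Copz1, a coat protein of the COPI vesicle, stood at 12.2 CPM in WT (15 UMIs) and 27.3 in tKO (78 UMIs), with 40.9 in aKO and 22.2 in nKO, and a log2 ratio of 1.08 (0.35 to 2.06). Rbm15, an RNA binding protein of the m6A writer complex, stood at 14.7, 31.5, 32.7 and 11.1 CPM, with a ratio of 1.04 (0.36 to 1.92). With all precursors only these 2 passed 2-fold, and both rest on fewer than 20 UMIs in WT. Copz1 came to 0.89 without neuron-marker precursors, 0.99 without called doublets and 1.53 in male nuclei only (3 UMIs in WT), and Rbm15 to 1.40, 1.19 and 0.28, each on fewer than the 100 UMIs asked of a compared gene. In the other barcodes the ratios were -0.17 for Copz1 and -0.02 for Rbm15, and whether the precursor ratios differ from these cannot be tested with 1 library per genotype. The other 10 had log2 ratios of 0.70 to 0.95, among them Dtx1, Gm9750, Sf3a1, Zcchc2, Smarcd3, Gulp1, Phf10, Krba1 and Rarb. Of these 12 genes, 2 still had 100 UMIs without neuron-marker precursors, 3 without called doublets and 3 in male nuclei only. Rarb, which had enough each time, came to -0.27, -0.06 and 1.14 in that order. Of the genes at least as high in precursors as outside that were then compared, 4 of 2959, 0 of 3308 and 15 of 2964 were at least 2-fold higher, and 8, 21 and 76 at least 2-fold lower.

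Hspa8, the constitutive heat shock protein of the 70 kDa family, was also lower in tKO. It stood at 226 CPM in WT, 105 in tKO, 65.4 in aKO and 111 in nKO precursors, and the other barcodes gave 222, 138, 111 and 113 CPM. WT was the high library in both. Cyp51, an enzyme of cholesterol synthesis, stood at 54.6, 27.3, 57.2 and 44.4 CPM, with an interval of -1.49 to -0.51 for the log2 ratio of tKO to WT, and was the only one of 6 cholesterol synthesis genes compared past 2-fold.

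**Figure D3:**
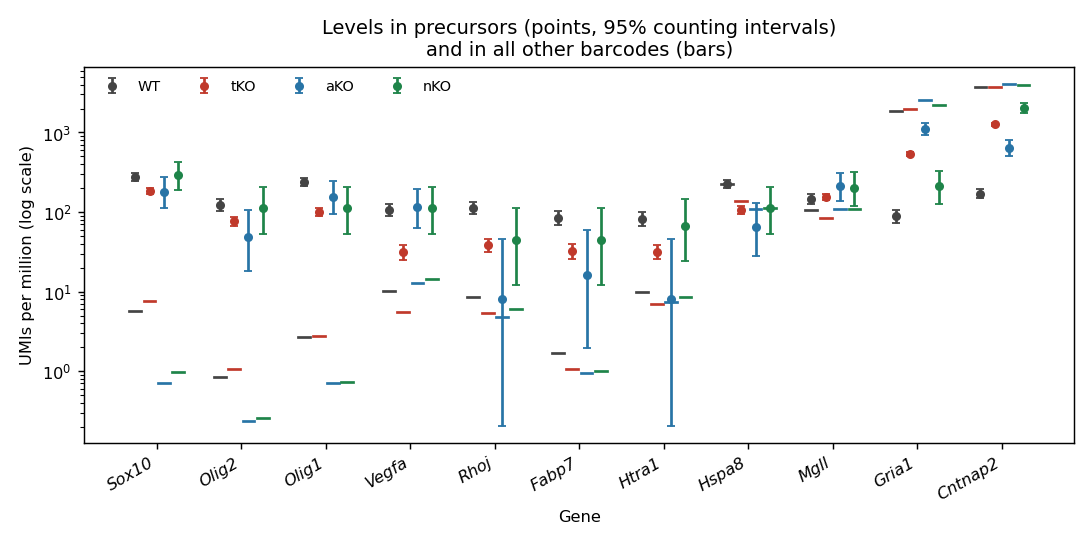
Level of 11 genes in precursors of each library (points, log y axis in CPM, with 95% Poisson counting intervals) and in all other barcodes of the library (short bars). Vegfa is low in tKO alone at 31.2 against 107 to 114, Rhoj, Fabp7 and Htra1 have their highest points in WT with wide intervals in aKO and nKO, and Gria1 and Cntnap2 are lowest in WT and below the other barcodes in all 4 libraries.

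The aKO and nKO precursors were few, and their ratios to WT spread accordingly. Of the 6576 genes, 17.3% differed at least 2-fold from WT in aKO (9.6% higher, 7.73% lower) and 18% in nKO (10.9% higher, 7.07% lower), and both comparisons share the WT library with that of tKO. Several committed-precursor genes were high in nKO. Bcas1 stood at 2285 CPM in nKO against 714 in WT, 558 in tKO and 769 in aKO. Tcf7l2, a Wnt pathway factor of early oligodendrocytes, stood at 654 against 171, 173 and 180 CPM. Fyn, a kinase of early oligodendrocytes, stood at 1853 against 588, 567 and 687 CPM.

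In all, 7 of 12 committed-precursor genes were at least 2-fold above WT in nKO and 0 were at least 2-fold below, with a median log2 ratio of 1.45, against 0.12 over all genes. Gpr17 was not among the 7, at 144 CPM in nKO and 176 in WT, with a log2 ratio of -0.19 (-1.22 to 0.52). These sums rest on 22 nuclei. The 3 nuclei with the most UMIs of each gene held 58.7% of the Bcas1 UMIs, 64.4% of those of Tcf7l2 and 61.1% of those of Fyn in nKO. The 8 mature oligodendrocyte markers summed to 377 CPM in nKO and 389 in WT precursors, and 3 of the 22 nKO nuclei held at least 3 of them.

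The Mgll gene, on chromosome 6 (88724412 to 88828360, mm10), was not lower in precursors of the global knockout by the UMIs counted. It stood at 146 CPM in WT (179 UMIs; 125 to 169), 156 in tKO (444 UMIs; 141 to 171), 213 in aKO (26 UMIs; 139 to 312) and 200 in nKO (18 UMIs; 118 to 316). The 4 intervals overlapped. The log2 ratio of tKO to WT was 0.09 (-0.16 to 0.35). In the other barcodes Mgll stood at 107, 84.2, 109 and 110 CPM. The labels do not say which part of the gene was removed, and nuclear reads over a gene need not cover that part, so these counts do not check the knockout.

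Of the other endocannabinoid genes, 9 of 15 including Mgll had at least 100 UMIs. Faah, which degrades anandamide, stood at 11.4 CPM in WT, 34.0 in tKO, 57.2 in aKO and 33.3 in nKO precursors, with 14, 97, 7 and 3 UMIs, and with a log2 ratio of tKO to WT of 1.49 (0.76 to 2.50). It was the only one of the 9 past 2-fold, and other barcodes held 90.9 to 103 CPM. Cnr1, the gene of CB1, stood at 17.9, 36.1, 49.1 and 22.2 CPM in precursors against 91.1 to 114 CPM outside. The list median was 0.16, and -0.02 without neuron-marker precursors.

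Precursors varied among themselves in the committed-precursor genes detected. Such a count depends on depth, and how far a nucleus had moved towards an oligodendrocyte was not tested. A nucleus was counted as committed where at least 3 of Bmp4, Gpr17, Enpp6, Bcas1, Tns3, Tcf7l2, Itpr2 and Rras2 were detected with Bmp4, Gpr17 or Enpp6 among them. By this count 127 of 308 WT precursors were committed (41.2%), 217 of 882 in tKO (24.6%), 9 of 28 in aKO (32.1%) and 7 of 22 in nKO (31.8%). The WT share lay above that of tKO beyond its counting interval (35.7 to 47.0% against 21.8 to 27.6%).

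At matched depth the gap was smaller. With each nucleus thinned to 1000 UMIs, 32 of 301 WT precursors (10.6%; 7.39 to 14.7%), 72 of 864 in tKO (8.33%; 6.58 to 10.4%), 3 of 28 in aKO (10.7%) and 3 of 22 in nKO (13.6%) were committed, and the intervals overlapped. Thinning left out 7 WT and 18 tKO nuclei. Excitatory neurons had at most 1.20% committed nuclei unthinned, at median depths of 9134.5 to 12150 UMIs, and at most 0.0667% thinned.

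Gpr17, an orphan receptor that marks the committed state, was detected in 134 WT, 245 tKO, 11 aKO and 8 nKO precursors. Enpp6, an enzyme of newly forming oligodendrocytes, was rarer and was detected in 16 WT, 57 tKO, 3 aKO and 5 nKO precursors. In WT a single nucleus held 25 of the 76 Enpp6 UMIs. Mbp, which encodes myelin basic protein, was detected in 20.5% of WT and 24.1% of tKO precursors. The 12 myelin genes compared had a median log2 ratio of tKO to WT of -0.44, which was 0.44 without neuron-marker precursors and 0.45 in male nuclei only, and 0 passed 2-fold with all precursors.

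Cycling nuclei were few. At least 3 of the G2 and M phase genes, such as Mki67, Aspm and the centromere protein gene Cenpe, were detected in 8 of 308 WT precursors (2.60%; 1.13 to 5.05%) and 11 of 882 in tKO (1.25%; 0.624 to 2.22%). Of the aKO and nKO precursors 0 of 28 and 0 of 22 did, which allows shares of up to 10.7% and 13.6% from a count of 0. After thinning the counts were 5 of 301 in WT (1.66%; 0.542 to 3.83%) and 3 of 864 in tKO (0.347%; 0.0717 to 1.01%). Excitatory neurons had 0.333 to 0.475% unthinned and at most 0.0333% thinned. The intervals of WT and tKO overlapped at both depths.

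The summed level of 15 of these genes, leaving out Anln, which mature oligodendrocytes also express, was 250 CPM in WT (306 UMIs; 222 to 279) and 72.9 in tKO (208 UMIs; 63.3 to 83.5). The log2 ratio of tKO to WT was -1.78 (-2.04 to -1.52). The 8 WT nuclei held 87.3% of those WT UMIs and the 11 tKO nuclei 69.2% of those of tKO, and the UMIs in all other precursors came to 31.8 and 22.4 CPM of the same totals. The counting interval takes UMIs as independent, while here they came from so few nuclei. Without called doublets 5 of 658 tKO precursors (0.760%) and 8 of 301 in WT (2.66%) met the count.

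**Figure D4:**
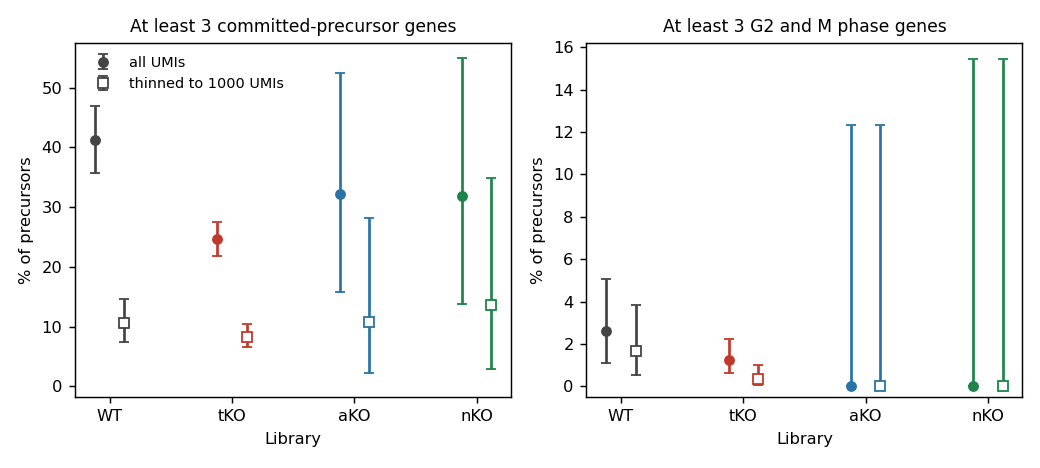
Share of precursors (y axes, percent) with at least 3 committed-precursor genes (left) and at least 3 G2 and M phase genes (right) in each library (x axes), with exact 95% intervals. Filled circles use all UMIs and open squares nuclei thinned to 1000 UMIs; the committed share is 41.2% in WT and 24.6% in tKO before thinning and 10.6 and 8.33% after it.

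To place the precursors among glia, they were compared with mature oligodendrocytes and astrocytes of the same libraries. These were gated by at least 3 of 8 markers of each type, with the same limits on detected genes and neuron UMIs. For astrocytes Aqp4, Gja1, Gjb6 or Aldh1l1 had to be among the markers. Precursors that also met the oligodendrocyte gate (20, 55, 1 and 3 in WT, tKO, aKO and nKO) or the astrocyte gate (7, 11, 0 and 2) were kept as precursors only. The gates held 383, 1938, 56 and 77 mature oligodendrocytes and 119, 154, 40 and 71 astrocytes in WT, tKO, aKO and nKO. UMIs were summed per gate and library and tested with edgeR's quasi-likelihood test with the library as a block, so that the 4 libraries were the replicates. All genes of the 3 gates were left out of the test. Other genes vary together with the markers that chose the nuclei, so the p-values measure how steady a difference was across the libraries and are not independent evidence of cell type.

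Precursors differed from mature oligodendrocytes in 30.6% of 7086 genes at an adjusted p under 0.05 (1044 higher, 14.7%; 1123 lower, 15.8%), and from astrocytes in 24.4% (794 higher, 11.2%; 938 lower, 13.2%). The median log2 fold change over all genes was -0.07 and -0.03. The shares of all genes higher and lower are the background for the counts of list genes below. Without the WT library 671 of 5500 genes tested were higher and 624 lower than in oligodendrocytes, and 506 higher and 516 lower than in astrocytes. Without tKO the lower genes numbered 685 and 617 of 5702 tested. Both contrasts use the same precursor sums. Excitatory markers were present in all 3 gates, at 322 to 922 CPM in oligodendrocytes and 636 to 1091 in astrocytes, against 131 to 810 in precursors.

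Among transcription factors, 8 of 13 tested were higher in precursors than in mature oligodendrocytes and 0 lower. Sox6, which keeps precursors from maturing, stood at 2039, 1660, 1431 and 1520 CPM in precursors of WT, tKO, aKO and nKO and at 18.4, 38.8, 32.5 and 125 CPM in oligodendrocytes. The groups did not overlap, and the log2 fold change was 5.16 ± 0.43 (SE, n = 4 libraries; edgeR adjusted p = 2.68e-07). Sox5, Zeb1, Myt1, Nkx2-2, Etv5, Olig1 and Olig2 were the others. Sox10 did not pass (0.24 ± 0.18, edgeR adjusted p = 0.373).

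Against astrocytes 10 of 13 were higher and 2 lower. Sox10 had 911 UMIs in precursors and 0 in astrocytes, so that precursors were at least 98.7-fold higher, with 3 counts over the astrocyte gate as the floor. Sox9, a transcription factor of astrocytes, was at 0.815, 2.10, 8.18 and 0 CPM in precursors and at 132, 56.6, 71.7 and 120 CPM in astrocytes (log2 fold change -5.35 ± 0.45, edgeR adjusted p = 6.54e-07).

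Receptors and their feedback targets followed. Against oligodendrocytes 6 of 13 growth factor receptors were higher and 3 lower, and all 6 feedback targets tested were higher, with a list median log2 fold change of 2.36. Without neuron-marker precursors 4 receptors and 5 feedback targets were higher. Ptprz1, a receptor phosphatase that binds pleiotrophin, was higher (5.02 ± 0.43, edgeR adjusted p = 3.33e-07), and Fgfr2, an FGF receptor, was lower (-1.99 ± 0.20, edgeR adjusted p = 2.2e-06). Etv4, an ETS factor downstream of receptor tyrosine kinases, stood at 33.3 to 117 CPM in precursors and at most 3.14 CPM in oligodendrocytes. Against astrocytes 2 receptors were higher (Erbb3 and Erbb4, receptors for neuregulin) and 6 were lower. Egfr had 20 UMIs over all precursors and 253 over all astrocytes (-5.20 ± 0.34, edgeR adjusted p = 9.2e-08).

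Of 14 matrix and proteoglycan genes, 13 were higher than in oligodendrocytes and 1, the chondroitin synthase gene Chsy3, was lower (-0.77 ± 0.24, edgeR adjusted p = 0.0233). Gpc5, a glypican, stood at 4308, 3445, 2355 and 2518 CPM in precursors and 19.3, 107, 130 and 69.0 CPM in oligodendrocytes. Tnr, the gene of tenascin-R, was at 3144 to 5391 CPM in precursors, 266 to 944 in oligodendrocytes and 192 to 687 in astrocytes. Against astrocytes 7 of the 14 were higher and 0 lower. Gpc5 did not pass there (-0.77 ± 0.41, edgeR adjusted p = 0.206).

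Receptors for transmitters were mixed. Of 21 glutamate receptor genes, 11 were higher than in oligodendrocytes and 4 lower, and 8 were higher than in astrocytes and 6 lower. Grin3a, an NMDA receptor subunit, stood at 583, 495, 311 and 344 CPM in precursors, 15.8 to 48.7 in oligodendrocytes and 20.6 to 148 in astrocytes. It was higher in both contrasts (4.08 ± 0.38 and 2.22 ± 0.33). Grm3, a metabotropic glutamate receptor, was lower in both (-2.55 ± 0.31 and -2.40 ± 0.31). Gria1, Grin2a and Grin2b were lower in both as well. They are also among the genes at least 2-fold higher in tKO than in WT precursors above. The part of neuronal RNA in these contrasts was not tested.

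Of 13 GABA receptor genes, 3 were higher than in oligodendrocytes (Gabrg1, Gabrg3 and Gabra3) and 3 lower. Against astrocytes 2 were higher, Gabrg3 and Gabra3, and 6 lower. With the neuron-marker precursors left out, 3 were higher and 7 lower than in oligodendrocytes and 1 higher and 9 lower than in astrocytes, although the neuronal RNA of the other gates then stayed in. Of 15 ion channel genes, 5 were higher than in oligodendrocytes and 2 lower (Kcna1, a voltage-gated potassium channel, and Hcn2, a cyclic nucleotide gated channel). Against astrocytes 2 of the 15 were higher, Kcnd2 and Cacna1a, and 0 were lower, and without neuron-marker precursors 0 were higher and 1 lower. Over all 7086 genes, 14.7% were higher and 15.8% lower than in oligodendrocytes, and 11.2% higher and 13.2% lower than in astrocytes. Counts of 2 among 13 or 15 genes lie near these shares and are not a feature of the lists.

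Adhesion genes were mostly higher, 13 of 20 in each contrast, with 0 lower than in oligodendrocytes and 1 lower than in astrocytes (Nrcam). Nxph1, the gene of the neurexin ligand neurexophilin, stood at 3110, 2235, 1668 and 2074 CPM in precursors, at most 63.6 in oligodendrocytes and at most 93.2 in astrocytes. Lrrc4c and Dscam, which encode synaptic and homophilic adhesion proteins, were higher in both contrasts by 1.98 to 2.77 in log2.

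Cholesterol synthesis genes were lower, 11 of 13 in each contrast with 0 higher, at list medians of -1.29 and -1.30. Hmgcs1, the synthase at the start of the pathway, stood at 20.7 to 32.7 CPM in precursors, 61.1 to 111 in oligodendrocytes and 41.8 to 157 in astrocytes. Cyp51 was lower than in oligodendrocytes (-1.10 ± 0.27, edgeR adjusted p = 0.00484) and did not pass against astrocytes (-0.58 ± 0.31, edgeR adjusted p = 0.199).

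Committed-precursor genes were mixed against oligodendrocytes, with 5 of 12 higher and 4 lower, and 9 of 12 were higher than in astrocytes. Gpr17 and Bmp4 were higher than in oligodendrocytes (4.09 ± 0.32 and 4.08 ± 0.53), and Gpr37, Myrf, Rras2 and Enpp6 were lower. Of 7 myelin genes outside the gates, 6 were lower than in oligodendrocytes and all 7 higher than in astrocytes. Mbp was lower than in oligodendrocytes (-3.09 ± 0.39, edgeR adjusted p = 1.58e-05). The gap junction gene Gjc3 did not pass against oligodendrocytes (-0.33 ± 0.21, edgeR adjusted p = 0.266).

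Of 11 Notch, Wnt and BMP genes, 3 were higher than in oligodendrocytes, with 0 lower, and 6 were lower than in astrocytes, with 0 higher. Hes5, a Notch target, stood at 62.8, 31.9, 8.18 and 11.1 CPM in precursors and at most 1.75 in oligodendrocytes (4.60 ± 0.45, edgeR adjusted p = 1.28e-06). Its aKO and nKO values rest on 1 UMI each in precursors, against 0 in oligodendrocytes. Id4 and Bmpr1b, both of the BMP pathway, were lower than in astrocytes (-5.29 ± 0.49 and -6.12 ± 0.48).

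Mgll was higher in precursors than in oligodendrocytes, at 146 against 130 CPM in WT, 156 against 73.0 in tKO, 213 against 102 in aKO and 200 against 163 in nKO (0.62 ± 0.22, edgeR adjusted p = 0.0409). This call was lost without the library block, and without the tKO or the aKO library, where the log2 fold change was 0.44 or 0.59. Against astrocytes, at 188 to 363 CPM, the difference did not pass (-0.54 ± 0.22, edgeR adjusted p = 0.0842). Abhd12, another hydrolase of 2-arachidonoylglycerol, was higher in both contrasts (0.73 ± 0.18 and 0.75 ± 0.19), and Faah was lower in both (-1.54 ± 0.28 and -0.95 ± 0.32).

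**Figure D5:**
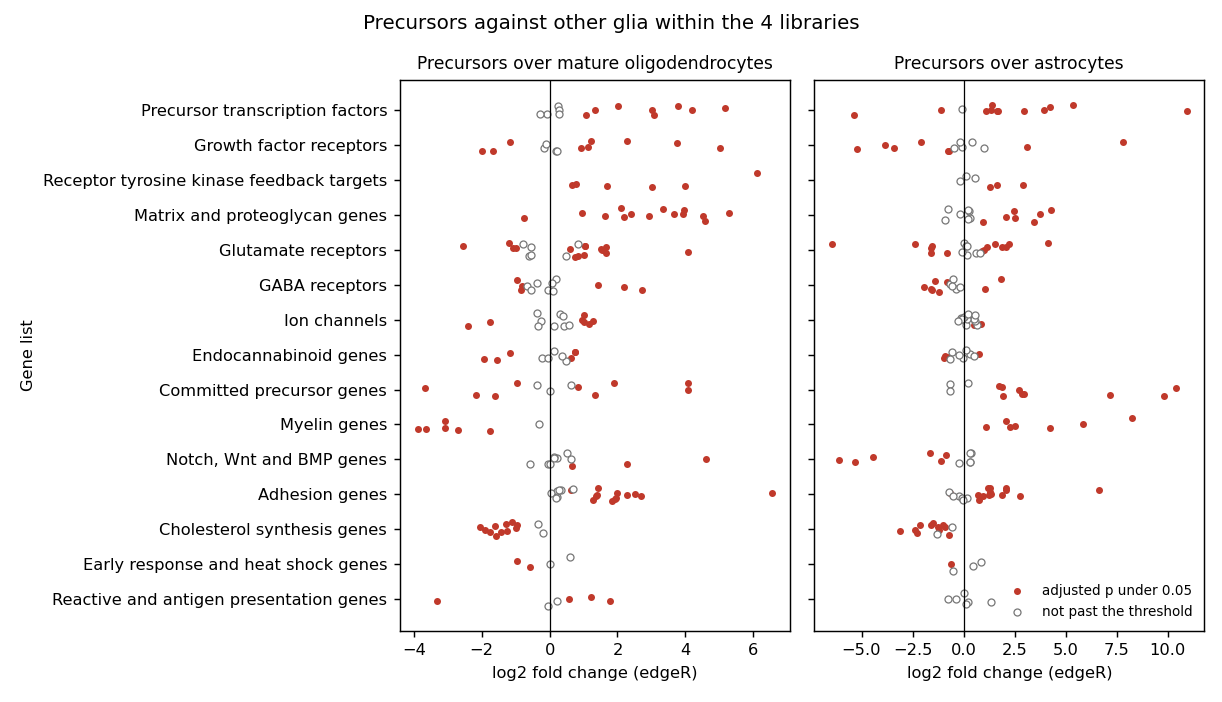
log2 fold change of precursors over mature oligodendrocytes (left) and over astrocytes (right), from edgeR with the library as a block (x axes), for the tested genes of each list (y axis, lists with at least 3 genes tested). Red points passed an adjusted p of 0.05 and open points did not; 13 of 14 matrix and proteoglycan genes lie to the right on the left panel, and 11 of 13 cholesterol synthesis genes passed to the left in both.

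The genes with the largest differences that kept their direction in all 4 libraries name further features. Car8, a carbonic anhydrase related protein, had 492 UMIs in precursors and 3 in oligodendrocytes, a pooled ratio of 274 with a counting interval of 93.2 to 1333. Ntn1, the axon guidance cue netrin 1, had 703 and 8 UMIs, and Emid1, an extracellular matrix gene, had 1028 and 16. Rlbp1, a retinaldehyde binding protein, Nxph1, Ednrb, the endothelin B receptor, and the less described Gm33680 and A930009A15Rik made up the rest. The 8 lowest had log2 fold changes of -5.09 to -4.21, among them Sgk2, Cldn14, Prom1, Rnf220, Galnt6, Sec14l5 and Gm5535.

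Against astrocytes the 8 highest were Sox10, Gpr17, Enpp6, Susd5, Snx22, Gjc3, 9630013A20Rik and Bcas1. The first 5 had 0 UMIs in the astrocyte gate and were at least 98.7, 66.6, 39.6, 43.1 and 14.8-fold higher in that order, against a floor of 3 UMIs over the gate. 9630013A20Rik lies within Pcdh17 on the opposite strand. The 8 lowest were Ranbp3l, Gm35552, Gli3, Slc6a20a, Slco1c1, Grin2c, Slc7a11 and Bmpr1b. Slc7a11, the cystine and glutamate exchanger, stood at 3.73 CPM over all precursors and 365 over all astrocytes, and Slco1c1, a thyroid hormone transporter, at 3.73 and 379 CPM. Gm35552 had 2 UMIs in precursors and 149 in astrocytes, a level 229-fold lower with a counting interval of 62.3 to 1910.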

How the data were processed

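Nuclear RNA of hippocampus was captured with a 10x Genomics kit that reads chromatin and RNA of the same nuclei, per the labels' protocols, and only the RNA is used here. The submitters' processing notes name Cell Ranger ARC 2.0.0 and the build mm10; the annotation, and whether strand was used in counting, are unknown here. The authors deposited raw UMI counts per gene and barcode, whole numbers with no normalization, for 8945 to 31243 barcodes and 81623644 to 193307038 UMIs per library. Every barcode held 400 to 5998 detected genes, so barcodes had been selected before deposit. Of 20211 symbols shared by the 4 libraries, 19830 were found in GENCODE M21, which gave the gene positions.

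The precursors and all gene lists were chosen with earlier results of these data known. UMIs were summed over precursors per library and divided by their total (CPM). Ratios to WT used genes with at least 100 UMIs over precursors, a pseudocount of 1 count and exact conditional binomial 95% intervals; sex genes, mitochondrial genes and the genes of the rule were left out. Shares carry Clopper-Pearson intervals, and the limit for a count of 0 is 3 counts. These intervals cover counting error only.

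Gate contrasts used edgeR 4.0.16 in R 4.3.3 (TMM, filterByExpr, glmQLFit, glmQLFTest, Benjamini-Hochberg adjustment, threshold 0.05) in 1 fit of 12 sums with the library as a block; the standard error is the fold change divided by the square root of F. The pairing by library comes from the design, since the gates of a library were captured together. The test was checked on simulated counts. There it recovered 36.25% of 2-fold changes against oligodendrocytes and 35% against astrocytes. Of 4-fold changes it recovered 100% and 96.5%. A gene that did not pass may thus still differ by 2-fold. DESeq2 1.42.0 was an alternative. Doublets were called with Scrublet in scanpy 1.11.5 at 0.8% per 1000 barcodes and kept in the main values.

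Genes of the lists could be named, and some genes that these rules select are not reported here. Outside them the text names, for tKO to WT, the 12 highest and 12 lowest ratios among genes at least as high in precursors as outside, and for each gate contrast the 8 highest and 8 lowest past the threshold with 1 direction in all 4 libraries and at least 100 UMIs in the higher gate. Alternatives were other UMI minimums, folds and pseudocounts, thinning, stricter rules, doublets removed, male nuclei only, precursors with neuron markers left out, and, for the contrasts, other normalization, no filter, no block and each library left out.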

Additional observations from a re-analysis of the deposited data

How the results depend on the processing

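The 11 alternatives of the gate contrasts were run for 20 genes against oligodendrocytes and 19 against astrocytes. These were the 8 highest and 8 lowest genes of each contrast, with Mgll, Olig1, Olig2 and Sox10. No value the alternatives gave turned a direction. The 8 highest and 8 lowest had been chosen by large fold changes with 1 direction in all 4 libraries. Their direction could thus hardly turn, and its being kept is not separate support. The aKO and nKO values rest on 28 and 22 precursors. The share of precursors was 2.65% in WT and 2.13% in tKO with no UMI of Slc17a7, Gad1 or Gad2 allowed, 2.79 and 2.43% without members that held markers of another glial or vascular list, and 2.52 and 2.02% without members with 2 markers of a neuron list, an alternative chosen after seeing the data. In tKO it was 2.51% with at least 4 rule genes and 2.04% thinned to 2000 UMIs. Genes at least 2-fold higher and lower in tKO than in WT precursors numbered 606 and 451 of 11833 at a minimum of 20 UMIs. At 300 UMIs they numbered 105 and 8 of 2876, and in male nuclei only 358 and 78 of 4935. After thinning to 1000 UMIs they came to 41 and 10 of 2481, and without neuron-marker members to 26 and 19 of 4491. Without called doublets 25 of 5092 were higher. At a fold of 1.5 the genes past it numbered 487 and 405 of 6576. The cause of these differences was not tested, beyond the smaller or larger sets of genes that the minimums leave.

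The committed share with at least 2 genes was 30.5% in tKO; thinned to 1000 UMIs it was 10.6, 8.33, 10.7 and 13.6% in WT, tKO, aKO and nKO, and thinned with 2 genes, chosen after seeing the data, 16.6% in WT and 13.1% in tKO. The G2 and M phase share in tKO was 2.38% with 2 genes and 0.347% thinned.

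For the contrast with mature oligodendrocytes, no filter gave 1825 of 19683 genes higher, against 1044 of 7086 with it. For astrocytes it gave 1443 of 19683 lower, against 938 of 7086. Leaving out each library gave 671 to 1265 genes higher and 624 to 1053 lower than in oligodendrocytes, and 506 to 847 higher and 516 to 918 lower than in astrocytes. The number of genes tested then ranged from 5500 to 8715. The lowest counts were without WT (5500 tested) and, for lower genes, 685 and 617 without tKO (5702 tested). Without the library block (no pairing of gates within a library) 824 and 825 genes passed for oligodendrocytes and 630 and 654 for astrocytes; of the genes recomputed, that lost the call of Mgll (log2 fold change 0.54), as did leaving out tKO or aKO. Sox10 against oligodendrocytes passed without neuron-marker members (0.67). No paired analysis was possible between genotypes because each had 1 library.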
